A study of Homo sapiens with 10 samples.

Results

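Peaks of the chromatin proteins BRD9 and SMARCB1 were examined at 6 receptor tyrosine kinase genes in G401 cells, an established line from a rhabdoid tumour. The genes PDGFRA, PDGFRB, FGFR1, MET, IGF1R and EGFR were chosen by name, and a peak was taken when it shared at least 1 bp with a gene or with the 50 kb on either side of it, on the human build hg19. This gave 644 of the 543439 peaks in the 8 lists used, 260 of them in the BRD9 lists and 384 in the SMARCB1 lists. The values compared are the number of peaks and the length they cover. Neither is part of the rule that names the genes, but earlier results of these data were known when the genes were chosen.

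The series mapped both proteins by CUT&RUN, which sequences the DNA that a nuclease, tethered by an antibody to the protein of interest, releases from chromatin. All cells carried the genotype SMARCB1(-/-), and doxycycline induced either GFP, the control, or SMARCB1. BRD9 was mapped in 3 samples of GFP-induced and 3 samples of SMARCB1-induced cells, and SMARCB1 in 2 samples of SMARCB1-induced cells. The 2 other samples of the series, SMARCB1 after GFP induction and rabbit IgG after SMARCB1 induction, were not analysed here. Every sample came from this 1 cell line, and no label says whether the replicates were separate cultures, so p-values measure only the spread between these samples. The files hold neither RNA nor protein levels, and whether any of the 6 genes was expressed was not measured.

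A receptor tyrosine kinase spans the cell membrane, binds a growth factor outside the cell, pairs with another receptor and phosphorylates tyrosines that start RAS-MAPK and PI3K signalling. SMARCB1 is a core subunit of the canonical SWI/SNF chromatin remodellers and is lost in rhabdoid tumours. BRD9 belongs to the non-canonical SWI/SNF complex, which does not contain SMARCB1. PDGFRA and FGFR1 are known as kinase inhibitor targets in rhabdoid lines.

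Promoter sequences are shown because a peak of at least 1 of the 2 proteins lay over each of the 6 hg19 start sites, in lists that differed between genes. They are the 250 bases before the annotated start, from RefSeq on GRCh38.p14, written 5′ to 3′ on the gene's strand. This is another build than that of the peaks, and no coordinates were converted. Capitals mark a GC box, GGGCGG on either strand, or an AP-1 motif, TGANTCA, which reads the same on both strands in its fixed letters. The table held 5 of the 6 genes, all but FGFR1, and gave a pair of start sites each for PDGFRA and EGFR.
PDGFRA start 1, chr4:54229043-54229292, plus strand: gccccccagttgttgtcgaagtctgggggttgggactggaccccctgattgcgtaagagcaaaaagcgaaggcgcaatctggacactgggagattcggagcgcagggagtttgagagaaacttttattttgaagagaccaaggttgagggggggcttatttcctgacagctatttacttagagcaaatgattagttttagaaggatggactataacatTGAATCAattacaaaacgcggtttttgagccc
PDGFRA start 2, chr4:54233710-54233959, plus strand: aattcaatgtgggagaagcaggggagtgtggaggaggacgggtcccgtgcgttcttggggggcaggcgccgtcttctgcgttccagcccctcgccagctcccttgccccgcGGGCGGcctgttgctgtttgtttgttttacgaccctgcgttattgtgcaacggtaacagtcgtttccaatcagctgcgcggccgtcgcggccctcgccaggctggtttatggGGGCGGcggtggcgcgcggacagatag
PDGFRB, chr5:150155846-150156095, minus strand: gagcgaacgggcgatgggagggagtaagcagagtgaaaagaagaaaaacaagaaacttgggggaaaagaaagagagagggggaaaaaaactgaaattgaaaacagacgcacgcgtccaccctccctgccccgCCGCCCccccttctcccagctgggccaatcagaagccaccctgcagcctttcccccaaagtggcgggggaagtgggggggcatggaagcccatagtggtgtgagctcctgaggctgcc
MET, chr7:116671946-116672195, plus strand: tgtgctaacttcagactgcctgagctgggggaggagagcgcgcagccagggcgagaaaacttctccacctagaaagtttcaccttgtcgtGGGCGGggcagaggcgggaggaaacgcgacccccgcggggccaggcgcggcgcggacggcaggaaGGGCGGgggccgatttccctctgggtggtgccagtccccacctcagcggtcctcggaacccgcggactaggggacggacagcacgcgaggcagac
IGF1R, chr15:98648289-98648538, plus strand: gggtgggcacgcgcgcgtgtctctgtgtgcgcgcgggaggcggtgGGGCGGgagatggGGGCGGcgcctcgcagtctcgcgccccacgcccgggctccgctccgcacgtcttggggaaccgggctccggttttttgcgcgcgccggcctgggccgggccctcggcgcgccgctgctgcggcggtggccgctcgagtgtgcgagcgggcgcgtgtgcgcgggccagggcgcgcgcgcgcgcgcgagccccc
EGFR start 1, chr7:55018767-55019016, plus strand: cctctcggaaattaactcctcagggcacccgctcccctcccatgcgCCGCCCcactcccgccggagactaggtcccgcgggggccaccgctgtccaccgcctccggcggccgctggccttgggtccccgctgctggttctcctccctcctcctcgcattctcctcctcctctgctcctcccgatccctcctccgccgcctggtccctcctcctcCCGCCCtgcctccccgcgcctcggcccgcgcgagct
EGFR start 2, chr7:55109589-55109838, plus strand: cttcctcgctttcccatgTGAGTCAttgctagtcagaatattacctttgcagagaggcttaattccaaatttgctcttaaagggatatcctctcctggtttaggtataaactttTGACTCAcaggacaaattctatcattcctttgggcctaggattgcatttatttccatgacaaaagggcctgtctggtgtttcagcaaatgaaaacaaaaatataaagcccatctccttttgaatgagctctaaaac

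A GC box was found in 42.6% of the 35116 RefSeq promoters and an AP-1 motif in 6.57%. The MET, IGF1R and first EGFR promoters held 2 GC boxes each, the second PDGFRA promoter held 2 and the PDGFRB promoter held 1. The first PDGFRA promoter had no GC box and 1 AP-1 motif, and the second EGFR promoter had no GC box and 2 AP-1 motifs. IGF1R had 48 CG dinucleotides in its 250 bases, more than 99.7% of promoters, whose median was 11. MET had 24, and the second PDGFRA promoter and the first EGFR promoter had 25 each, whereas the first PDGFRA promoter had 8, PDGFRB 9 and the second EGFR promoter 1. These matches are descriptions of the letters and no measure of a factor.

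The BRD9 libraries held 10.1 to 13.9 M reads and gave 35252 to 46448 peaks, with a median of 18 to 23 reads per peak. The SMARCB1 libraries were deeper, with 64.2 and 59.7 M reads and 133297 and 161710 peaks. All BRD9 lists were called against a control library of the same size, 23.1 M reads, and both SMARCB1 lists against one of 49.6 M reads. The genome was also cut into windows of 200 kb, of which 10684 held a BRD9 peak in at least 1 list. Over these the median share of the window covered by BRD9 peaks was 0.217% after GFP induction and 0.496% after SMARCB1 induction, so the median window was also covered more after SMARCB1 induction.

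At 5 of the 6 genes, PDGFRB, FGFR1, MET, IGF1R and EGFR, every BRD9 list of SMARCB1-induced cells covered more of the locus than every list of GFP-induced cells, and at PDGFRA every one covered less. Peak number was ordered in the same way at all 6 genes. In the genome, all lists of SMARCB1-induced cells were above all others in 29.0% of windows by covered length and in 22.5% by peak number, and below all others in 7.99% and 7.06%. Each of the 12 comparisons therefore gave the same two-sided exact permutation p = 0.1, the smallest that 3 lists against 3 allow. With Benjamini-Hochberg adjustment across the windows and the 6 loci together, the exact permutation p was 0.338 for peak number and 0.270 for covered length, and no comparison passed 0.05.

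**Figure D1:**
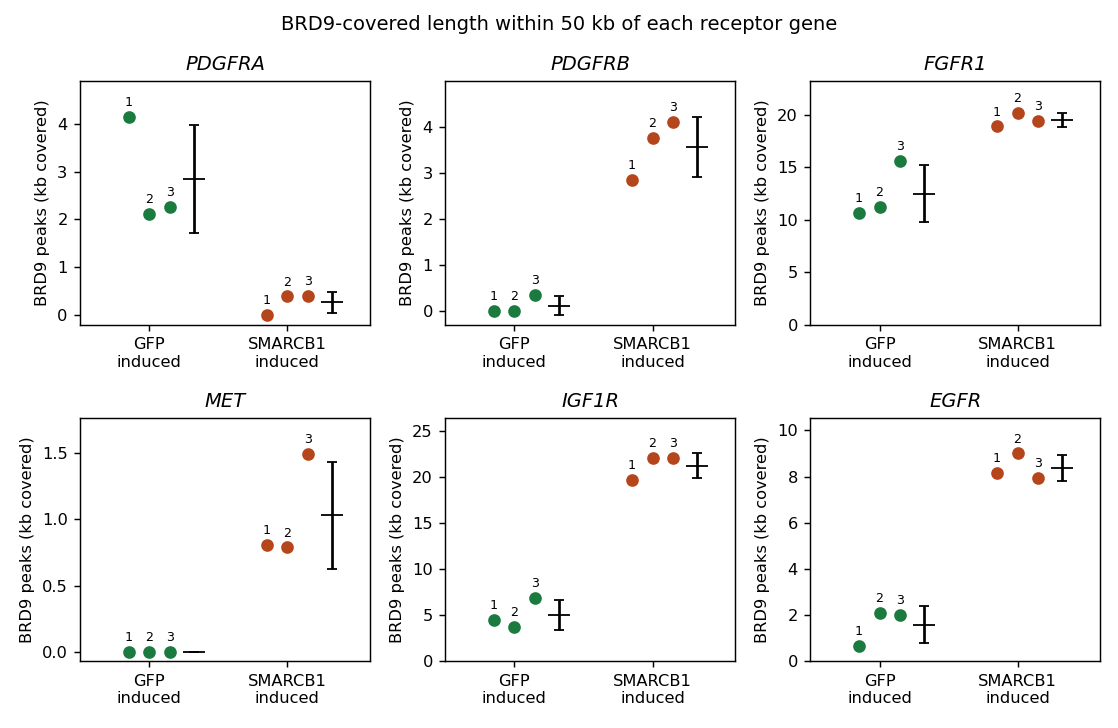
Length covered by BRD9 peaks, in kb, within 50 kb of each gene. Points are single lists, numbered by replicate, for GFP-induced (green) and SMARCB1-induced (orange) cells, and the bar beside them is the mean ± SD of 3 lists. The groups do not overlap at any of the 6 genes, and PDGFRA is the only one of them where the GFP-induced lists are the higher.

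PDGFRA, the receptor for PDGF-A and other PDGF dimers, was the gene where BRD9 peaks were fewer after SMARCB1 induction. Its locus is chr4:55095264-55164412 with 50 kb on either side. Replicates 1, 2 and 3 of GFP-induced cells had 5, 5 and 3 BRD9 peaks, against 0, 1 and 1 after SMARCB1 induction. Covered length was 4.14, 2.11 and 2.27 kb after GFP induction and 0, 0.384 and 0.400 kb after SMARCB1 induction. The lowest GFP-induced list lay far above the highest SMARCB1-induced list. The means were 2.84 ± 1.13 kb and 0.261 ± 0.226 kb (SD, n = 3), a difference of -2.58 kb, lower in 3 of 3 lists (exact permutation p = 0.1).

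When overlapping peaks of the 6 lists were merged, the locus held 11 BRD9 regions, and 8 of them (72.7%) came from 1 list only, as did 62.9% of BRD9 regions genome-wide. The only one found in all GFP-induced lists and in no SMARCB1-induced list, called lost from here on, was chr4:55106526-55107851, inside the gene and 11.3 to 12.6 kb past its start. Of all 119939 BRD9 regions of the genome 1.04% met that rule. Its densities were 3.35, 4.49 and 3.03 RPKM, reads per kilobase and per M reads of the library, in replicates 1, 2 and 3 of GFP-induced cells. The control library had 0.102 RPKM there. It was also the densest BRD9 region of the locus, at 3.62 ± 0.768 RPKM (SD, n = 3).

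A BRD9 peak over the PDGFRA start, chr4:55094972-55095551, was called in replicate 2 of GFP-induced cells alone, at 2.85 RPKM. The same list held peaks 1.89 to 11.4 kb upstream that no other BRD9 list had. All peaks of replicates 1 and 3 of GFP-induced cells lay between 3.73 and 19.9 kb past the start. The 2 peaks of SMARCB1-induced cells lay 5.16 to 5.56 kb and 13.9 to 14.3 kb past the start.

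SMARCB1 was sparse at PDGFRA, with 5 and 3 peaks in its 2 lists that covered 1.75% and 1.24% of the locus. A SMARCB1 region below is a union of overlapping SMARCB1 peaks that holds peaks of both lists. PDGFRA had 3 such regions, the smallest number of the 6 genes. The densest, chr4:55083819-55084676 at 1.49 RPKM, lay 11.4 to 10.6 kb upstream, and the widest, chr4:55098976-55100101 at 1.30 RPKM, lay 3.71 to 4.84 kb past the start. The lost BRD9 region overlapped none of them, whereas 28.4% of lost regions genome-wide overlapped one, and 3 of the 11 BRD9 regions overlapped one. Control density in the BRD9 peaks of GFP-induced cells was 0.266 to 0.324 RPKM at PDGFRA, below the 0.627 to 1.50 RPKM in the BRD9 peaks of the same group at the other genes that had any.

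PDGFRB, the second PDGF receptor and the main receptor for PDGF-B, showed the opposite order to PDGFRA. It lies on the minus strand at chr5:149493402-149535422. The GFP-induced lists had 0, 0 and 1 BRD9 peaks and the SMARCB1-induced lists had 4, 6 and 5. Covered length was 0, 0 and 0.346 kb after GFP induction, against 2.84, 3.74 and 4.09 kb after SMARCB1 induction. BRD9 peaks were thus present in 1 of 3 lists of control cells and in every list of SMARCB1-induced cells. The means were 0.115 ± 0.200 kb and 3.56 ± 0.649 kb (SD, n = 3), a difference of 3.44 kb, higher in 3 of 3 lists (exact permutation p = 0.1).

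Of the 6 BRD9 regions at PDGFRB, 3 were found in every SMARCB1-induced list and in no GFP-induced list, called gained from here on. Genome-wide 6.85% of BRD9 regions met that rule. The densest, chr5:149521200-149523329, lay 12.1 to 14.2 kb into the gene, with 4.48, 4.26 and 3.42 RPKM in replicates 1, 2 and 3. Another, chr5:149491651-149492537, lay just past the gene's end and had 3.91 ± 0.403 RPKM (SD, n = 3). On that side CSF1R is the next gene in the RefSeq annotation, and which of the 2 genes this region belongs to was not tested. The third, chr5:149541029-149541951, lay upstream, from -6.53 to -5.61 kb, and had 3.16 ± 0.152 RPKM (SD, n = 3). Control density in these regions was 0.785 to 1.62 RPKM.

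The PDGFRB start lay inside a SMARCB1 region, chr5:149532251-149536376, of 1.80 RPKM. BRD9 there was at chr5:149533865-149534610, 0.812 to 1.56 kb past the start, with 3.53, 3.25 and 3.28 RPKM in the SMARCB1-induced lists. A peak at 3.40 RPKM in the same place was called in replicate 3 after GFP induction, the one BRD9 peak of that group at PDGFRB. A peak over the start itself, chr5:149535376-149535694, was called in replicate 3 of SMARCB1-induced cells alone. SMARCB1 had 14 and 15 peaks at the locus and covered 14.7% and 18.6% of it. All 6 BRD9 regions overlapped a SMARCB1 region, of which the densest, chr5:149491376-149493476 at 2.34 RPKM, and the widest, chr5:149516926-149525651, each held a gained BRD9 region.

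FGFR1, a receptor for fibroblast growth factors, had the most BRD9 of the 6 genes per length of locus, flanks included, in both groups. It lies on the minus strand at chr8:38268656-38326352. The GFP-induced lists had 8, 8 and 11 BRD9 peaks and the SMARCB1-induced lists 17, 14 and 13. Covered length was 10.7, 11.2 and 15.6 kb after GFP induction and 18.9, 20.2 and 19.4 kb after SMARCB1 induction. The SMARCB1-induced lists lay close together, and replicate 3 of GFP-induced cells was the nearest to them. The means were 12.5 ± 2.71 kb and 19.5 ± 0.657 kb (SD, n = 3), 1.56-fold higher in SMARCB1-induced cells and higher in 3 of 3 lists (exact permutation p = 0.1).

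Most BRD9 at FGFR1 lay beyond the 3′ end of the gene. There the GFP-induced lists covered 9.99, 9.04 and 12.4 kb and the SMARCB1-induced lists 13.7, 14.1 and 14.96 kb. A total of 3 regions were called in all 6 lists, which genome-wide held for 4.67% of BRD9 regions, and all of them lay at or past that end. The densest, chr8:38258176-38263738, had 5.79, 11.4 and 7.42 RPKM in the GFP-induced lists and 9.01, 8.80 and 8.52 RPKM in the SMARCB1-induced lists, so the groups overlapped in density. The second, chr8:38239414-38244232, had 7.07 ± 1.01 and 6.95 ± 0.591 RPKM (SD, n = 3). The third, chr8:38266306-38269867, spanned the gene's end and had 4.81 ± 0.536 and 6.07 ± 0.197 RPKM (SD, n = 3). LETM2 is the next gene on that side in the RefSeq annotation.

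Inside FGFR1 the BRD9 lists differed more in proportion than beyond its end, but not more in kb covered. The gene body was covered over 0.668, 1.48 and 1.15 kb after GFP induction and over 4.58, 4.89 and 4.47 kb after SMARCB1 induction. One gained region lay in the body, chr8:38298951-38299632, 26.7 to 27.4 kb past the start at 3.55 ± 0.095 RPKM (SD, n = 3). The 2 others lay downstream, chr8:38254551-38255691 at 4.30 ± 0.437 and chr8:38264018-38265144 at 3.60 ± 0.04 RPKM (SD, n = 3). A BRD9 region over the start, chr8:38325901-38326584, was called in replicates 1 and 2 of SMARCB1-induced cells at 3.39 RPKM in both. Just upstream of it, chr8:38326864-38328796 was called in the same 2 lists and in replicate 3 of GFP-induced cells, at 2.97 RPKM.

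SMARCB1 had 39 and 40 peaks at FGFR1, covering 48.3% and 58.2% of the locus, at 2.25 and 2.41 RPKM. Its densest region, chr8:38257251-38270998 at 3.90 RPKM, spanned 13.7 kb over the gene's end and held 2 of the 3 BRD9 regions called in all 6 lists. The widest, chr8:38371226-38387501, was 16.3 kb long and reached beyond the 50 kb flank upstream. The start lay in another, chr8:38325851-38329952, of 2.02 RPKM, and a neighbouring one, chr8:38320251-38325401 of 2.38 RPKM, began 0.951 kb past it. Of the 22 BRD9 regions, 21 overlapped a SMARCB1 region.

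**Figure D2:**
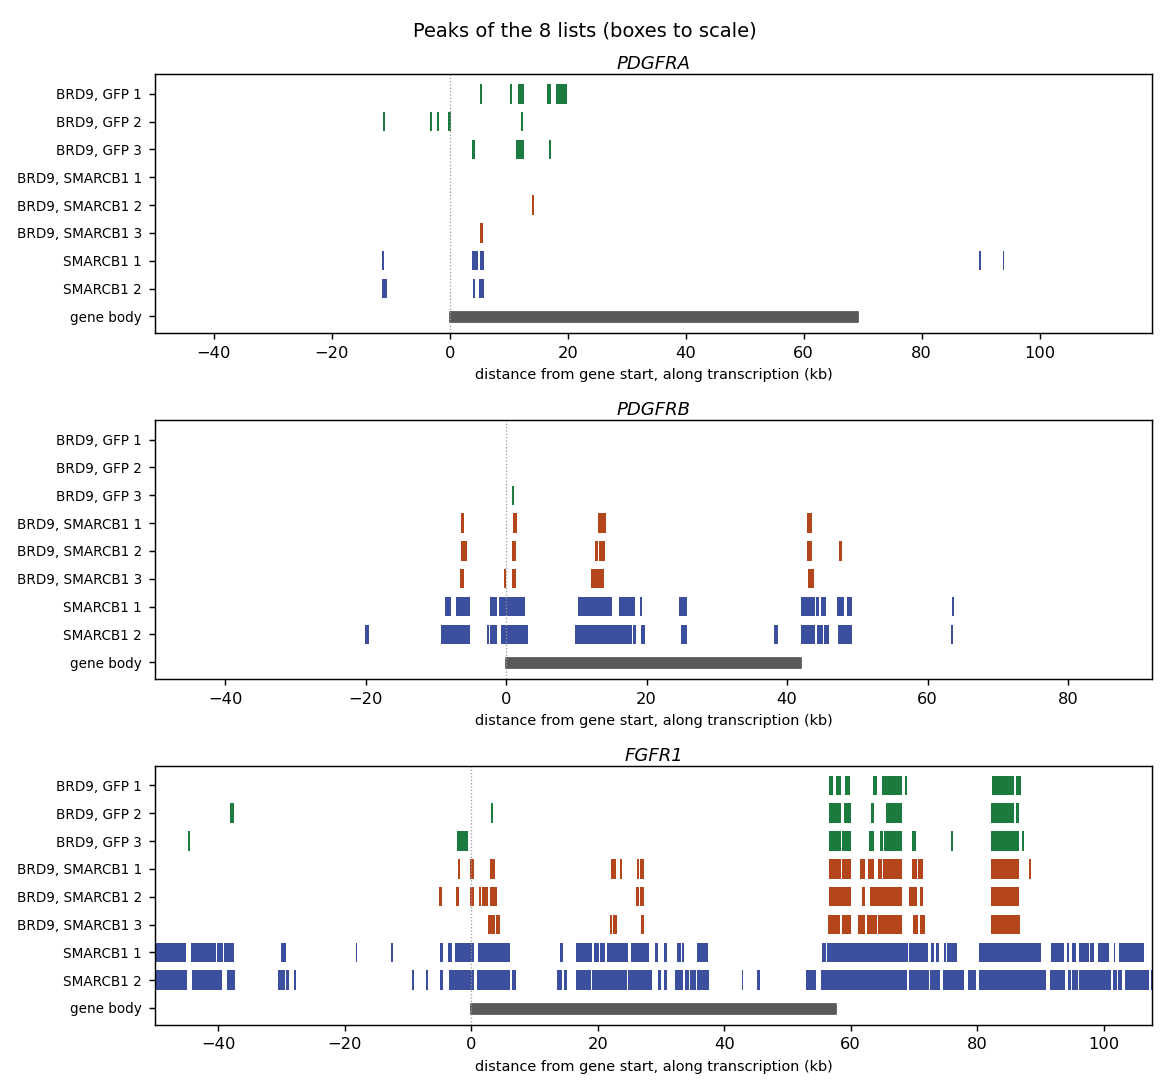
Peaks of the 8 lists at PDGFRA, PDGFRB and FGFR1, drawn to scale against the distance from the gene start in kb along transcription. Rows are the BRD9 lists of GFP-induced (green) and SMARCB1-induced (orange) cells and the SMARCB1 lists (blue), with the gene body in grey. PDGFRA has few SMARCB1 peaks and more green than orange ones, PDGFRB has 1 green peak, and at FGFR1 both BRD9 groups share the peaks beyond the gene's end.

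MET, the receptor for hepatocyte growth factor, had no BRD9 peak in control cells and few after SMARCB1 induction. It lies at chr7:116312459-116438440. The GFP-induced lists had 0 BRD9 peaks each and the SMARCB1-induced lists had 1, 1 and 2. Covered length was 0.809, 0.788 and 1.50 kb in the SMARCB1-induced lists, a mean of 1.03 ± 0.404 kb (SD, n = 3, exact permutation p = 0.1). None of these peaks lay in the gene body, so the difference at MET rests on the downstream flank.

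The gained region at MET was chr7:116442257-116443176, 3.82 kb past the end of the gene. It had 3.26, 3.38 and 4.06 RPKM in replicates 1, 2 and 3 of SMARCB1-induced cells, against 0.923 RPKM in the control library. It lay within the widest SMARCB1 region of the locus, chr7:116440576-116443876, of 1.96 RPKM. The fourth BRD9 peak, of replicate 3, lay 11.5 kb past the gene's end in the densest SMARCB1 region, chr7:116449451-116451876, also of 1.96 RPKM. CAPZA2 is the next gene on that side in the RefSeq annotation. SMARCB1 had 10 and 13 peaks at the locus and covered 4.24% and 5.41% of it. At the MET start SMARCB1 had a peak in replicate 1 and none in replicate 2, and BRD9 had none.

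IGF1R, the receptor for the insulin-like growth factors, is the longest of the 6 genes and had the most BRD9 peaks. It spans chr15:99192761-99507759, 315 kb. The GFP-induced lists had 9, 9 and 14 BRD9 peaks and the SMARCB1-induced lists 27, 29 and 29, and the groups lay far apart. Covered length was 4.51, 3.72 and 6.90 kb after GFP induction and 19.7, 22.1 and 22.1 kb after SMARCB1 induction. The means were 5.04 ± 1.66 and 21.3 ± 1.39 kb (SD, n = 3), 4.21-fold higher in SMARCB1-induced cells and higher in 3 of 3 lists (exact permutation p = 0.1). Peak number was 2.66-fold higher, so the fold was larger for covered length than for peak number.

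IGF1R had 8 gained regions and no lost one among 52 BRD9 regions, and 7 of the 8 lay in the gene body. The body makes up 315 kb of the 415 kb locus. Of all BRD9 peaks of SMARCB1-induced cells there, 20 of 27, 25 of 29 and 22 of 29 overlapped it in replicates 1, 2 and 3. The gained regions were spread from 21.6 to 317 kb past the start. The highest mean density was that of chr15:99433106-99433931, with 4.97, 5.18 and 4.31 RPKM in replicates 1, 2 and 3 of SMARCB1-induced cells. Second in mean density was chr15:99342426-99344131, with 4.37, 5.11 and 4.87 RPKM. The neighbouring pair chr15:99438876-99441276 and chr15:99441549-99443982 were the widest and had 4.70 ± 0.121 and 3.82 ± 0.418 RPKM (SD, n = 3). The other gained regions in the body, chr15:99214399-99215375, chr15:99270326-99271258 and chr15:99486292-99487351, had means from 3.85 to 4.12 RPKM. The one past the gene's end, chr15:99508844-99509951, had 2.88 ± 0.067 RPKM (SD, n = 3), with a control density of 0.152 RPKM.

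Only 1 region at IGF1R was called in all 6 BRD9 lists. It was chr15:99322351-99323576, 130 to 131 kb past the start, with 3.43 ± 0.189 RPKM after GFP induction and 3.66 ± 0.743 RPKM after SMARCB1 induction (SD, n = 3). The densest region, chr15:99416251-99417649, was in 5 of the lists, with 4.19 and 4.73 RPKM in replicates 1 and 2 of GFP-induced cells and 5.16, 6.06 and 5.42 RPKM in the SMARCB1-induced lists. A further 10 regions were called in GFP-induced lists only and 32 in SMARCB1-induced lists only. Of the former 4 overlapped a SMARCB1 region, and of the latter 29 did. The genome-wide shares of these classes were not computed. Regions of 1 list only numbered 24 of the 52 (46.2%), below the 62.9% genome-wide.

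No BRD9 peak lay within 1 kb of the IGF1R start in any list. SMARCB1 had a peak over the start, from -0.185 to 0.290 kb, in replicate 2 (1.69 RPKM) and none there in replicate 1. The start thus lay between 2 SMARCB1 regions of both lists, chr15:99185626-99191992, which ended at -0.769 kb, and chr15:99193576-99199526, which began at 0.815 kb from the start. They had 2.11 and 2.50 RPKM. SMARCB1 had 81 and 72 peaks at the locus and covered 47.6% and 53.9% of it. A total of 5 of the 46 SMARCB1 regions were 10 kb or wider. Of all 87773 SMARCB1 regions of the genome, 1.76% were. The widest, chr15:99312051-99332976, was 20.9 kb long and held the BRD9 region called in all 6 lists. The densest, chr15:99341526-99345276 at 3.39 RPKM, held the gained region chr15:99342426-99344131 named above. Of the 46 SMARCB1 regions at IGF1R, 23 held no BRD9 peak of any list, a share not computed genome-wide.

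EGFR, the receptor for epidermal growth factor, had most of its BRD9 peaks inside the gene and none within 1 kb of its start. It lies at chr7:55086725-55275031. The GFP-induced lists had 1, 3 and 3 BRD9 peaks and the SMARCB1-induced lists 9, 13 and 8. Covered length was 0.673, 2.10 and 2.00 kb after GFP induction and 8.17, 9.004 and 7.94 kb after SMARCB1 induction. The SMARCB1-induced lists varied less in covered length than in peak number, and 2, 3 and 1 of their peaks lay upstream of the gene, between -31.3 and -22.8 kb. The means were 1.59 ± 0.796 and 8.37 ± 0.562 kb (SD, n = 3), 5.26-fold higher in SMARCB1-induced cells and higher in 3 of 3 lists (exact permutation p = 0.1).

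The BRD9 peaks of GFP-induced cells at EGFR all lay between 45.7 and 55.6 kb past the start. The region called in all 6 lists, chr7:55132471-55134826, was among them, with 3.36, 3.68 and 4.25 RPKM after GFP induction and 4.23, 4.77 and 4.50 RPKM after SMARCB1 induction. The densest region, chr7:55141193-55142297, had 6.17 RPKM in replicate 2 of GFP-induced cells and 3.60 ± 0.564 RPKM (SD, n = 3) in the SMARCB1-induced lists. All 4 gained regions lay in the gene body. They were chr7:55130895-55131879 at 3.20 ± 0.880, chr7:55176326-55177526 at 3.71 ± 0.596, chr7:55196976-55199101 at 3.86 ± 0.552 and chr7:55200201-55200876 at 3.44 ± 0.468 RPKM (SD, n = 3).

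The gained region chr7:55176326-55177526 lay 89.6 to 90.8 kb past the EGFR start on hg19. On GRCh38 the second RefSeq start of EGFR, whose promoter with 2 AP-1 motifs is printed above, lies 90822 bp past the first. The offsets come from different builds, so whether the peak covers that promoter was not settled here. Over the hg19 start itself SMARCB1 had a region of 1.38 RPKM, chr7:55086026-55089501, and BRD9 had no peak within 1 kb. SMARCB1 had 45 and 47 peaks at the locus and covered 21.1% and 28.1% of it. Its widest region, chr7:55126351-55145676, was 19.3 kb long and held all BRD9 peaks of GFP-induced cells as well as a gained region. The densest, chr7:55194701-55202484 at 2.99 RPKM, held 2 gained regions. All 13 BRD9 regions at EGFR overlapped a SMARCB1 region.

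**Figure D3:**
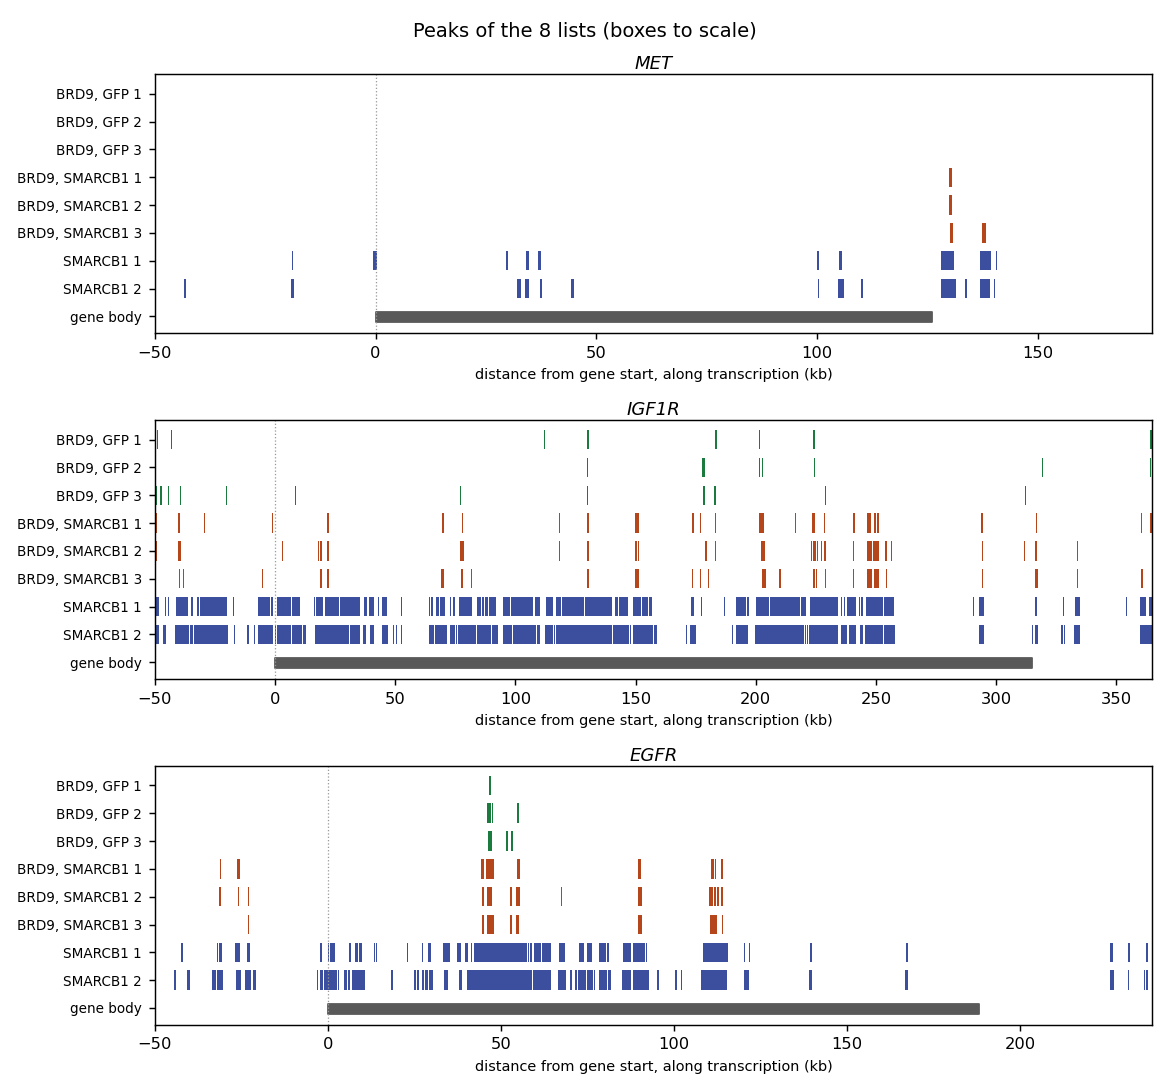
Peaks of the 8 lists at MET, IGF1R and EGFR, drawn to scale against the distance from the gene start in kb along transcription, with rows and colours for BRD9 after GFP induction (green), BRD9 after SMARCB1 induction (orange), SMARCB1 (blue) and the gene body (grey). MET has BRD9 peaks only past its end and only in orange rows. IGF1R has them in both flanks and, with wide gaps, in the gene body. At EGFR the green peaks fall within 45.7 to 55.6 kb past the start.

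Levels were then compared between the genes as the share of each locus covered, which allows for their different lengths. After GFP induction BRD9 covered 7.92 ± 1.72% of the FGFR1 locus, 1.68 ± 0.669% of PDGFRA, 1.22 ± 0.399% of IGF1R, 0.552 ± 0.276% of EGFR, 0.0812 ± 0.141% of PDGFRB and 0% of MET (SD, n = 3). After SMARCB1 induction the shares were 12.4 ± 0.417% for FGFR1, 5.12 ± 0.335% for IGF1R, 2.90 ± 0.195% for EGFR, 2.50 ± 0.457% for PDGFRB, 0.457 ± 0.179% for MET and 0.155 ± 0.134% for PDGFRA (SD, n = 3). PDGFRA thus stood next to FGFR1 in control cells and last in SMARCB1-induced cells. In the first order the lists of PDGFRA and IGF1R overlapped, as did those of EGFR and PDGFRB and those of PDGFRB and MET. In the second, those of EGFR and PDGFRB overlapped. The lead of FGFR1 over PDGFRA in control cells rested on the flanks. Inside the genes, BRD9 of GFP-induced cells covered a mean of 1.10 kb of 57.7 kb at FGFR1 and 2.37 kb of 69.1 kb at PDGFRA. After SMARCB1 induction these means were 4.65 kb at FGFR1 and 0.261 kb at PDGFRA.

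SMARCB1 covered 53.3% of the FGFR1 locus, 50.8% of IGF1R, 24.6% of EGFR, 16.7% of PDGFRB, 4.82% of MET and 1.50% of PDGFRA, as means of 2 lists. FGFR1 and IGF1R did not differ beyond the spread of their lists. Among all 15163 windows of the genome FGFR1 stood above 98.9%, IGF1R above 98.8%, EGFR above 94.3%, PDGFRB above 90.2%, MET above 69.9% and PDGFRA above 53.8%. The loci differ in length from the windows, and IGF1R is longer than one. The difference in BRD9-covered share between the groups, in percentage points, was 4.46 at FGFR1, 3.91 at IGF1R, 2.42 at PDGFRB, 2.35 at EGFR, 0.457 at MET and -1.53 at PDGFRA. Of the windows with a BRD9 peak, 97.3% had a smaller difference than FGFR1 and 7.03% a smaller one than PDGFRA.

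**Figure D4:**
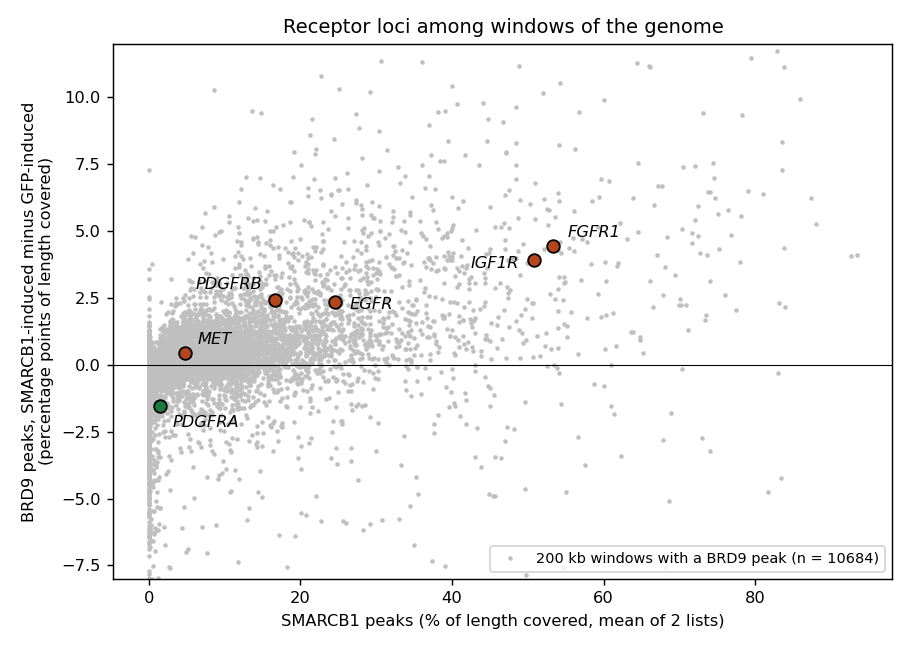
Share of length covered by SMARCB1 peaks (x axis, percent, mean of 2 lists) against the difference in BRD9-covered share, SMARCB1-induced minus GFP-induced (y axis, percentage points). Grey points are 10563 windows of 200 kb with a BRD9 peak, 121 more lie outside the axis, and the named points are the 6 loci. FGFR1 and IGF1R lie at the right and above 0, and PDGFRA at the left and below 0, at -1.53.

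The 6 loci held 106 BRD9 regions in all. The gained regions numbered 19 (17.9%, against 6.85% of BRD9 regions genome-wide), and PDGFRA was the only gene without one. There was 1 lost region (0.943%, against 1.04%), at PDGFRA. A further 5 (4.72%, against 4.67%) were called in all 6 lists, at FGFR1, IGF1R and EGFR, and each of the 5 overlapped a SMARCB1 region (59.6% genome-wide). Regions of 1 list only numbered 48 (45.3%, against 62.9%). Of the 19 gained regions, 13 lay in a gene body, 5 lay downstream and 1, at PDGFRB, upstream. That share was near that of all BRD9 peaks of SMARCB1-induced cells at the 6 genes. Of these, 36 of 58, 46 of 64 and 39 of 58 in replicates 1, 2 and 3 overlapped a gene body.

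All 19 gained regions overlapped a SMARCB1 region, as did 95.9% of gained regions genome-wide. Of the 60 BRD9 regions found only in SMARCB1-induced lists 56 overlapped one, and of the 25 found only in GFP-induced lists 11 did. Genome-wide shares were not computed for regions found only in lists of a single group. Whether this split is particular to the 6 genes was therefore not tested. The overlap of BRD9 regions with SMARCB1 regions was 81.1% over the 6 loci and 37.8% genome-wide, and SMARCB1 covered far more of FGFR1 and IGF1R than of a median window, 1.07%. In single lists, 69.6%, 76.0% and 71.9% of the BRD9 peaks of GFP-induced cells at the 6 genes overlapped a SMARCB1 region, and 96.6%, 93.8% and 96.6% of those of SMARCB1-induced cells. Their values genome-wide were 20.5%, 41.7% and 29.4%, and 57.1%, 65.3% and 65.1%. In the other direction, 71 of the 122 SMARCB1 regions at the 6 genes held no BRD9 peak of any list. The genome-wide share of such regions was not computed. BRD9 peaks of SMARCB1-induced cells were in 46 of the 122 and those of GFP-induced cells in 23 of the 122.

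**Figure D5:**
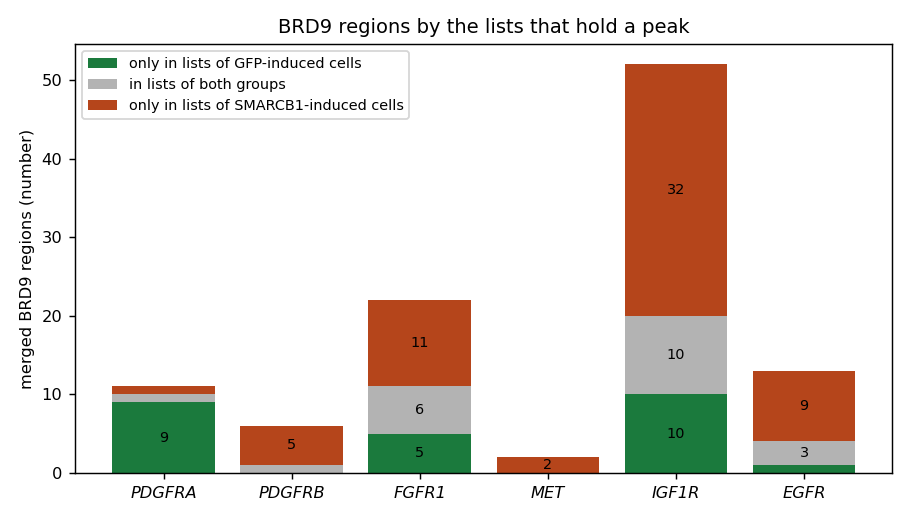
Number of merged BRD9 regions per gene (y axis), split by whether the lists that held a peak were of GFP-induced cells only (green), of both groups (grey) or of SMARCB1-induced cells only (orange); parts without a printed number are 1 region. PDGFRA is mostly green, with 9 of 11, and IGF1R has the most orange regions, with 32 of 52. Of these, 7 of the 9 and 15 of the 32 came from 1 list only, which fixes their colour. The genome-wide shares of these classes were not computed.

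The limit of 50 kb left BRD9 regions close outside it at 2 genes. At EGFR a region 51.0 kb before the gene was called in 3 SMARCB1-induced lists and in no GFP-induced list, and at FGFR1 one 52.5 kb upstream was called in 1 SMARCB1-induced list. Just inside the limit, IGF1R had a region 49.1 kb upstream that was in 3 GFP-induced and 2 SMARCB1-induced lists, and one 49.1 kb downstream in 2 lists of each group. At the other edges the nearest regions outside lay 58.1 kb or more from the gene.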

How the data were processed

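BRD9 and SMARCB1 CUT&RUN peak lists were compared per locus. The authors' lists were called per sample. They give read counts of sample and control, deposited raw, and the same as RPKM, per the file headers and a recomputation. The authors' score is the −log10 of a false discovery rate, at least 3.98 in every list. BWA 0.7.12-r1039 and hg19 are named in the submitters' processing notes; the peak caller and the BRD9 control are not given in the sources used here. The deposited SMARCB1 list names give GFP-induced cells as the control. Lists hold reads only at their own peaks, so no count model was fitted. Gene positions came with the gene set, strands from general knowledge. Named regions followed a rule: each gained or lost BRD9 region, each region within 1 kb of a start, and per locus the densest BRD9 region and the densest and widest SMARCB1 regions. Regions in all 6 BRD9 lists and those at the 50 kb limit were named outside it, after their values were seen. Genes, lists and rules were chosen with earlier results of these data known. Other receptor genes, ligands and adaptors were not analysed here. Alternatives changed flank, threshold, overlap, merging, scaling, replicates and window size. On simulated lists 200 of 200 gained and 200 of 200 lost regions were recovered. Each simulated peak was placed in every list of its group, so this checks the code and gives no recovery rate for these data. Python 3.11.15, numpy 2.4.6, pandas 2.3.3, scipy 1.17.1 and matplotlib 3.10.9 were used.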

Additional observations from a re-analysis of the deposited data

How the results depend on the processing

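Of 168 alternatives for the differences in BRD9 peak number and covered length at the 6 loci, 166 kept their direction and 0 reversed. The exceptions were at MET without a flank, where both groups had no BRD9 peak and both differences were 0. Leaving out 1 list or taking the replicate number as a block could not change a direction, since the groups overlapped at no gene. Those alternatives are therefore no test of direction. Sizes moved by over 1.5 times with the flank. Without it the difference in covered length was 3.55 kb at FGFR1 and 1.82 kb at PDGFRB and that in peak number 2.33 at PDGFRB. With 100 kb it was 10.8 kb and 12.3 peaks at EGFR and 2.0 peaks at MET. Among peaks above each list's median score, the difference in peak number was -2.0 at PDGFRA and 3.0 at PDGFRB. At FGFR1 the groups overlapped in peak number, with a difference of 3.0, among those peaks (exact permutation p = 0.2) and when peaks within 500 bp were merged (exact permutation p = 0.3). Leaving out 1 replicate at a time moved the difference in covered length from -2.94 to -1.93 kb at PDGFRA, 3.17 to 3.80 kb at PDGFRB, 6.11 to 8.58 kb at FGFR1, 0.798 to 1.15 kb at MET, 15.6 to 17.1 kb at IGF1R and 6.32 to 7.03 kb at EGFR. The replicate block left the differences unchanged by construction, and its exact permutation p was 0.25, the smallest that 3 pairs allow. Deviations in covered length over windows correlated between same-numbered lists at 0.787 for replicate 1, 0.668 for replicate 2 and -0.079 for replicate 3. Between differently numbered lists of the 2 groups the correlations ran from -0.766 to 0.602. Replicates 1 and 2 thus deviated together by number and replicate 3 did not, and whether the numbers pair samples was not settled.

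Gained regions numbered 34 when 2 of 3 lists sufficed (12.6% genome-wide) and 40 with the replicate block (13.9%). Lost regions numbered 3 in both cases (5.70% and 6.68%) and 2 with a flank of 100 kb. Leaving out replicates gave 19 to 25 gained regions (7.92% to 9.91% genome-wide). It gave 1 or 2 lost regions, 2 of them without BRD9_GFP replicate 1 (1 at PDGFRA and 1 at IGF1R, 2.44% genome-wide) and 2 without BRD9_GFP replicate 2 (both at PDGFRA, 4.08%). Of 26 alternatives for these counts, 19 stayed within 1.5 times the reported count. The genome shares changed with window size, and the loci are 142 to 415 kb long. By covered length, all SMARCB1-induced lists were above all others in 24.7% of 100 kb and 35.3% of 500 kb windows, and below in 7.15% and 8.93%. By peak number they were above in 19.2% and 28.0%, and below in 5.75% and 8.76%. A median BRD9 peak rests on 18 to 23 reads, so weak BRD9 could be missed in single lists. No peak in a list is no measure of absent binding.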
